A study of Mus musculus with 8 samples.

Results

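The replication-dependent histone genes were examined in NIH3T3, a fibroblast line derived from mouse embryos that grows indefinitely in culture, after serum stimulation with or without cordycepin. Members were all non-control probes whose gene name on the array begins with Hist1h, Hist2h, Hist3h or Hist4h followed by the histone class. This gave 51 probes for 46 genes, out of 55681 probes on the array. They comprised 5 probes for the linker histone H1, 14 for H2A, 11 for H2B, 8 for H3 and 13 for H4, and 5 genes had 2 probes each. Of 45 probes that carry a RefSeq accession, 44 matched a current RefSeq symbol. Cells of all 3 groups were grown on 15 cm plates in 10% newborn bovine serum and then starved in 0.5% serum for 24 h. The cordycepin group (n = 3 arrays) received 20 µM cordycepin in 0.1% DMSO for 90 min, with serum present during the last 30 min. The serum group (n = 3) received the same 0.1% DMSO without the drug and the same serum treatment. The last group (n = 2) received no serum, and whether it received DMSO is not given. Cells with cordycepin but without serum were not analysed here, so that the drug was seen in serum-treated cells only. As whole cultures were measured, fewer cells transcribing a gene and less RNA per cell cannot be told apart.

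Histones package DNA into nucleosomes. H2A, H2B, H3 and H4 form the core of the nucleosome, and H1 binds the linker DNA between cores. Their replication-dependent genes are intronless, lie in clusters and are transcribed mainly in S phase. They are known as the exception among mRNAs: their transcripts end just after a conserved stem-loop, which is bound by the stem-loop binding protein Slbp, and normally have no poly(A) tail. Longer, polyadenylated transcripts of some of these genes are also known, mostly from resting or differentiated cells. Cordycepin (3′-deoxyadenosine) stops an RNA chain when it is incorporated and is used to inhibit polyadenylation. The labelling kit named in the labels primes cDNA synthesis from poly(A) with oligo(dT), so what these arrays recorded for a histone gene need not be its usual mRNA.

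Which part of a transcript a probe can see was read from its sequence and from its start in the listed transcript. A probe holds the stem-loop where it has a 16-base inverted repeat with arms of 6 bases that begin with a pair of G, around a loop of 4 bases that begins with T, and at least 10 bases of it at the 3′ edge of the probe also counted. A whole stem-loop was present in 5 of the 51 histone probes (9.80%), against 16 of all 55681 probes (0.0287%). These sequences show what the probes share with the mature histone mRNA end. They are given 5′ to 3′ as 30-base windows of the probes, with the stem-loop in capitals, and the last probe holds only the beginning of it.
Hist1h3i (chr13:21874784-21874843, minus strand, mm9): ataacaaaaGGCTCTTTTCAGAGCCccctc
Hist1h3g (chr13:23627719-23627778, plus strand): cactttaaaGGCTCTTCTTAGAGCCaccca
Hist1h3a (chr13:23853756-23853815, minus strand): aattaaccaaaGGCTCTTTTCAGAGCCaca
Hist1h4m (chr13:21923661-21923720, minus strand): caactaaaGGCCCTTTTCAGGGCCatccaa
Hist2h2bb (chr3:96074056-96074115, plus strand): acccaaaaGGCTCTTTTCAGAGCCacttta
Hist1h2ab (chr13:23843392-23843451, plus strand): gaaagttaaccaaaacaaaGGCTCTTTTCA

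These 6 probes reach into the 3′ UTR up to the usual end of the mRNA. A further 11 probes were taken to lie past it: they start at base 483 to 2884 of the transcript listed for them, or begin within the stem-loop and run on. Except for Hist1h2ae, they were placed by that start alone, and the stem-loop of their transcripts was not located. Where they do lie past it, such probes can record only transcripts that extend beyond the usual end. The windows below are from the past-the-end probes that the results turn on. That of Hist1h2ae begins inside the stem-loop, shown in capitals, and the other 3 are the last 30 bases of each probe.
Hist1h2ae (chr13:23662489-23662548, minus strand, mm9): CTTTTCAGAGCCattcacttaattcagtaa
Hist2h2be (chr3:96026893-96026952, plus strand): tacttacttgggattctgccatacactgaa
Hist1h2be (chr13:23675610-23675669, minus strand): tactgttcattattaaagcattcctgattg
Hist1h2bc (chr13:23784254-23784313, plus strand): aatgcttttaagtgtttgtcatgtatggat

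The remaining 34 probes lie in the body of the transcript, mostly in the coding sequence. Some of them are shared between genes: 14 of the 34 list more than 1 RefSeq transcript, as do 3 of the other probes. An overlap of 40 or more bases that was at least 90% identical to another body probe of the same class was found in 6 of 11 H2A and 3 of 11 H4 body probes and in 0 of 4 each for H1, H2B and H3. The H2A probes below end at the stop codon, and capitals mark where each differs from the Hist1h2ah probe over 54 shared bases. Hist1h2af and Hist1h2an each differ at 3 bases and Hist2h2aa2 at 5, so a value given for 1 of these genes may include RNA of the others.
Hist1h2ah (chr13:22127035-22127094, minus strand, mm9): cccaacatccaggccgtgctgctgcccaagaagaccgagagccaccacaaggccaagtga
Hist1h2af (chr13:23626113-23626172, plus strand): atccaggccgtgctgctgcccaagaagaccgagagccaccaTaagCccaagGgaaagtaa
Hist1h2an (chr13:21878695-21878754, minus strand): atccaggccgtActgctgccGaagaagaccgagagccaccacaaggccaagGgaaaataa
Hist2h2aa2 (placed by the file at chr13:51298057-51298116, minus strand): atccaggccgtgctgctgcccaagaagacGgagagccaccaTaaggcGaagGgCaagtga

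Values are log2 processed signals from which the array's own 75th percentile was subtracted. That percentile lay between 302.2 and 692 intensity units, each array had 51.1 to 57.1% of its probes well above background, and arrays of a group correlated at r = 0.992 to 0.995 across probes. Of the 51 histone probes, 42 were well above background on every cordycepin array, 41 on every serum array and 43 on both arrays without serum. 41 probes were well above background on all 8 arrays, and 3 (Hist1h1d, Hist1h3a and the pseudogene Hist3h2bb-ps) on none. Thus most histone probes gave a signal in starved fibroblasts with a poly(A)-primed label. Where a probe is shared, its signal does not show which of the genes it came from. Tests were run on the 43 probes that cleared background throughout 1 or more of the 3 groups. They represent 39 genes, and their means over the 8 arrays span −5.11 to 7.61, a spread that reflects probes as well as RNA levels. Hist1h1d, Hist1h1t, Hist1h2ac, Hist1h2bb, Hist1h2bq, Hist1h3a, Hist3h2bb-ps and 1 of 2 probes of Hist2h4 were not tested. Hist1h2bp entered only through the group without serum, and Hist1h2ae was well above background on 2 of 3 serum arrays.

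The effect of cordycepin on the serum-stimulated cells was addressed first. No member probe was called as changed 2-fold. At an adjusted p under 0.05 (limma, Benjamini-Hochberg over all 30859 probes tested) and a log2 difference of 1 or more, 0 of 43 were called in either direction. A called histone probe outside the name rule is described under Other observations. Over all probes tested, 7.56% were called higher and 2.99% lower. At an adjusted p under 0.05 with no demand on size, 4 histone probes were higher with cordycepin and 0 lower, against a background of 11.7% higher and 7.71% lower. At an unadjusted p under 0.05 there were 7 histone probes, 6 higher and 1 lower, where 31.1% of all probes had such a p. The fold changes ran from −0.40 to 0.97 on the log2 scale, with 30 above and 13 below 0, and their median of 0.10 lay close to that of all probes (0.085). That balance depends on the scaling, since quantile normalisation gave 20 above and 23 below 0. Of the 43 probes, 38 had a 95% interval within −1 to 1. Every cordycepin array lay above every serum array for 8 probes and below for 1, where 25.0% and 13.9% of all probes separated in this way.

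**Figure D1:**
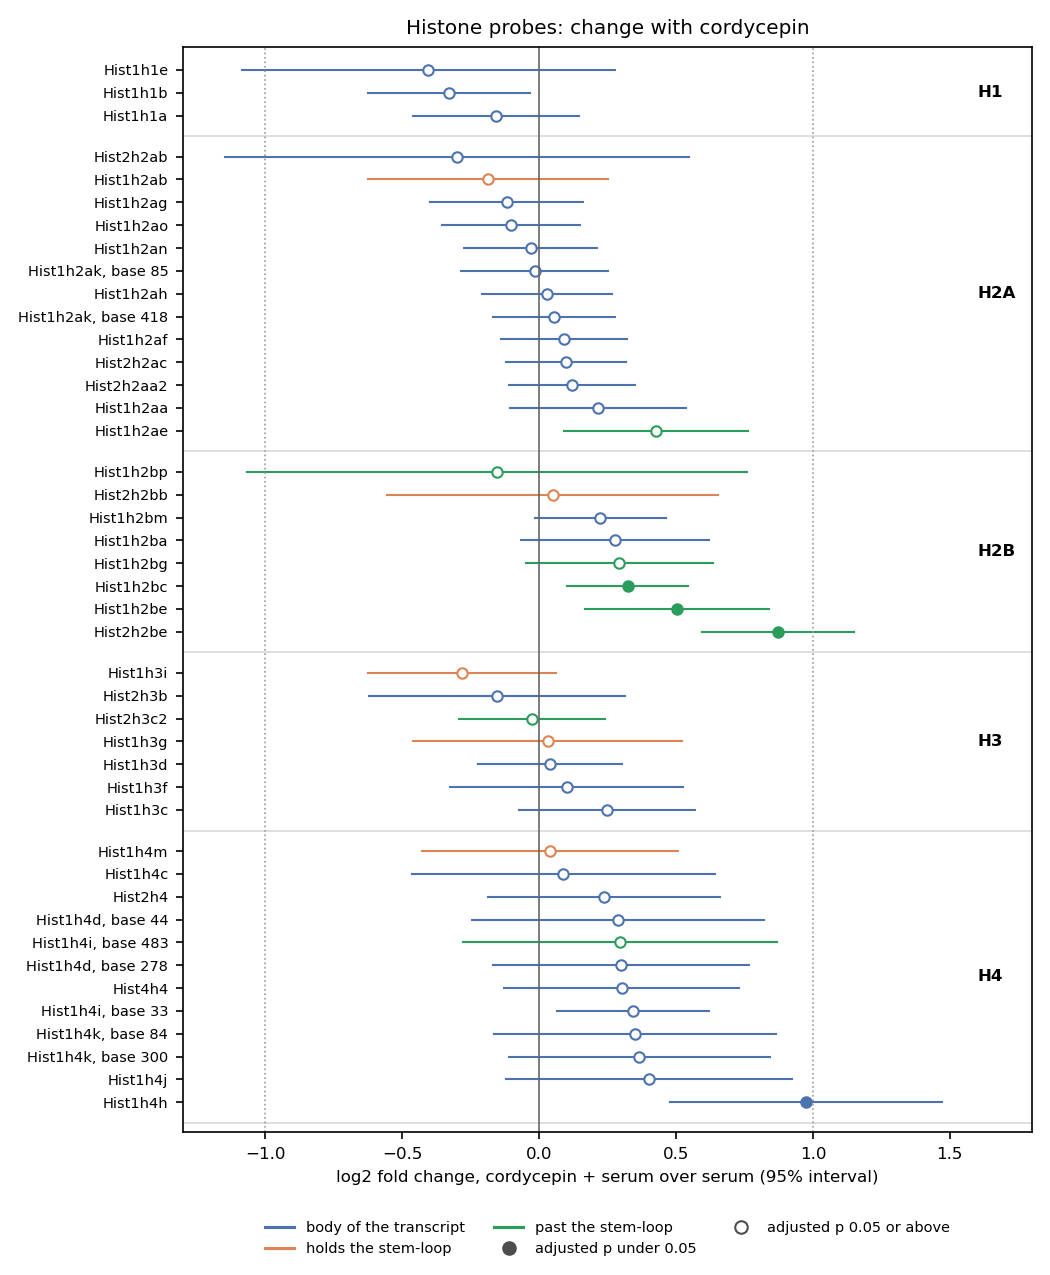
The horizontal axis gives the log2 fold change of cordycepin plus serum over serum for each of the 43 tested histone probes, as a point with its 95% interval, grouped by histone class and coloured by the part of the transcript the probe lies in; filled points have an adjusted p under 0.05 and dotted lines mark a 2-fold change. The 4 filled points are Hist1h4h, Hist2h2be, Hist1h2be and Hist1h2bc, and no point lies beyond 1.

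The H1 linker histones had the lowest values of the 5 classes, though none of the 3 tested probes passed the test. Their median change was −0.33, with adjusted p-values between 0.123 and 0.457. Hist1h1b measured 0.98, 1.12 and 1.24 with cordycepin, 1.42, 1.29 and 1.61 with serum alone and 1.72 and 1.56 without serum. The cordycepin arrays lay below all others, and the difference from serum was −0.33 (SE 0.13, adjusted p = 0.123, limma). Hist1h1e, the H1 gene with the highest mean, measured 1.37, 1.55 and 2.36 with cordycepin and 1.71, 2.27 and 2.51 with serum. These groups overlapped, and the interval of their difference (−1.09 to 0.28) included a 2-fold drop as well as no change. The difference of −0.40 was −0.21 without cordycepin array 1, −0.71 without cordycepin array 3, −0.63 without serum array 1, −0.23 without serum array 3 and −0.18 with the slide row as a block. Hist1h1a, a dim probe, differed by −0.16 (0.12 with normexp background correction). The testis gene Hist1h1t and the far-downstream probe of Hist1h1d were not tested.

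The H2A class differed little between the groups. None of its 13 tested probes passed the test (adjusted p-values 0.0825 to 0.941), and its median change was 0.03. Hist1h2ah, the histone probe with the highest signal, measured 7.70, 7.57 and 7.63 with cordycepin, 7.63, 7.53 and 7.65 with serum and 7.50 and 7.65 without serum. The 3 groups overlapped, with a difference of 0.03 between cordycepin and serum (SE 0.10, 95% interval −0.21 to 0.27). For the 8 H2A body probes with the highest signals, which include the 4 printed above, differences ran from −0.12 to 0.12, and their intervals all lay between −0.40 and 0.35. Hist2h2ab had the largest drop of the class (−0.30), with cordycepin arrays at −4.19, −5.08 and −4.09 and serum arrays at −4.37, −3.49 and −4.60, which overlapped widely, and with normexp background correction the difference was 0.07. The largest rise of the class was that of Hist1h2ae, whose probe begins in the stem-loop and runs past it. It measured −4.36, −4.47 and −4.75 with cordycepin and −5.06, −5.07 and −4.73 with serum, a difference of 0.43 (SE 0.15, adjusted p = 0.0825) near the detection limit, which was 0.26 with normexp background correction and 0.12 with quantile normalisation (adjusted p = 0.31 and 0.63).

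H2B held 3 of the 4 probes that passed the test without regard to size, and each of these lies past the stem-loop. Hist2h2be, an H2B gene of the chromosome 3 cluster, measured −0.91, −0.94 and −0.94 with cordycepin, −2.02, −1.69 and −1.69 with serum and −1.64 and −1.69 without serum. The cordycepin arrays stood above all 5 others, by 0.87 over serum (SE 0.12, 95% interval 0.59 to 1.15, adjusted p = 0.00133), a rise of less than 2-fold. Its probe starts at base 1849 of the listed transcript. Hist1h2be, with a probe at base 2375, measured −0.83, −1.24 and −0.80 with cordycepin against −1.61, −1.37 and −1.40 with serum. The groups did not overlap, and the rise was 0.50 (SE 0.15, adjusted p = 0.0456). Hist1h2bc measured 3.98, 3.87 and 3.90 with cordycepin and 3.56, 3.58 and 3.64 with serum, again without overlap. Its rise of 0.32 had an adjusted p of 0.0496 (SE 0.10, limma).

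How firmly these H2B values stand differed between the genes. Hist2h2be passed the test under 13 of 14 alternative settings, the exception being centring on the spike-in probes, and its change ranged from 0.68 to 0.93 over them. Hist1h2be passed under 2 of 14 settings and Hist1h2bc under none, with adjusted p-values of up to 1, although both remained higher with cordycepin throughout. Hist1h2be lost its adjusted p under 0.05 when any array other than cordycepin array 2 was left out, and Hist1h2bc when any array was left out. Of the other H2B probes, Hist1h2bg, also past the stem-loop, differed by 0.29 with an adjusted p of 0.223. Hist1h2bp, well above background on 1 of 3 cordycepin arrays, differed by −0.15. Hist2h2bb, whose probe holds the stem-loop, differed by 0.05, with cordycepin arrays at 0.41, 0.60 and 1.31 around serum arrays at 0.32, 0.90 and 0.94. The median over the 8 tested H2B probes was 0.29.

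**Figure D2:**
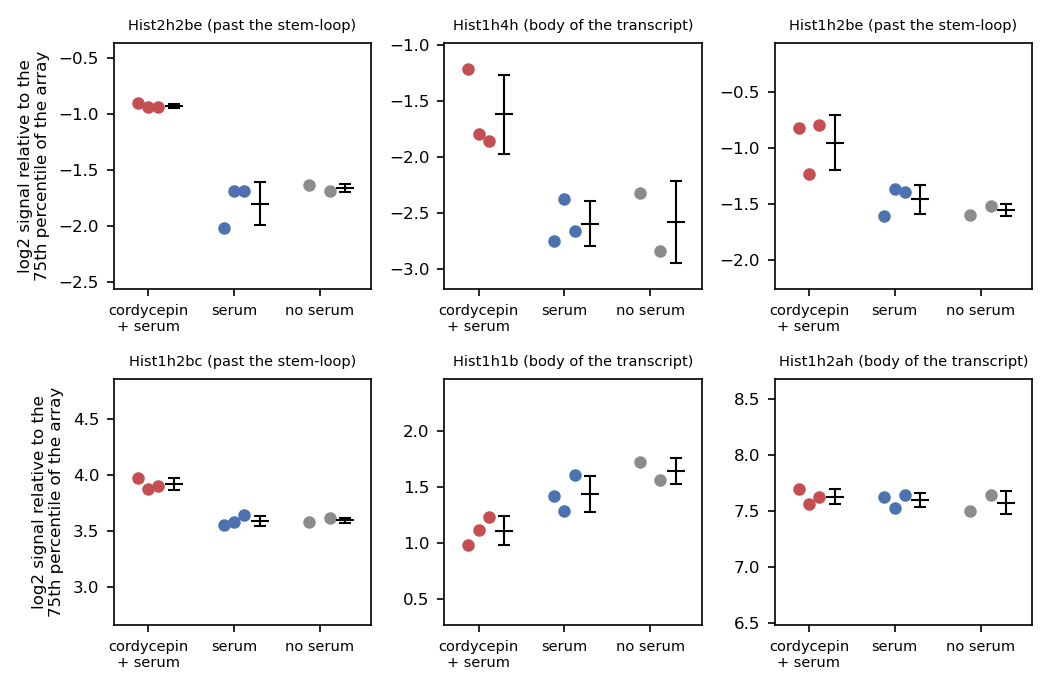
Each panel gives the log2 signal relative to the array's 75th percentile of 1 histone probe on each of the 8 arrays, as points by group, with the mean and SD of each group as a bar; all panels span the same range. Hist2h2be, Hist1h4h, Hist1h2be and Hist1h2bc lie higher on the 3 cordycepin arrays, Hist1h1b lies lower, and Hist1h2ah differs by 0.03.

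H3 had no probe that passed the test. Among its 7 tested probes adjusted p-values lay between 0.243 and 0.938, the median change was 0.03, and all intervals lay between −0.62 and 0.57. Hist1h3d, the H3 probe with the highest signal, measured 6.40, 6.25 and 6.51 with cordycepin, 6.33, 6.28 and 6.43 with serum and 6.11 and 6.25 without serum. Cordycepin and serum arrays overlapped (difference 0.04, SE 0.11). The largest rise of the class was that of Hist1h3c (0.25, adjusted p = 0.265), whose probe spans the start codon. The largest drop was that of Hist1h3i (−0.28, adjusted p = 0.243), which holds the stem-loop. Its cordycepin arrays at −3.36, −3.28 and −3.12 overlapped with the serum arrays at −3.24, −2.80 and −2.89. With quantile normalisation the drops of Hist1h3i and Hist1h1a passed an adjusted p of 0.05, so that 2 histone probes were higher and 2 lower under that setting. With normexp background correction the same probes differed by −0.013 (adjusted p = 0.961) and 0.12 (adjusted p = 0.619). The medians of H2A and H3 were below 0 under quantile normalisation (−0.09 and −0.14), as they were with spike-in centring (−0.01 each), whereas those of H1, H2B and H4 had the same sign under every scaling tried for cordycepin against serum.

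All 12 tested H4 probes had a higher mean with cordycepin than with serum (10 of 12 under quantile normalisation and 11 of 12 with spike-in centring), but only that of Hist1h4h passed the test. Hist1h4h measured −1.21, −1.79 and −1.85 with cordycepin, −2.75, −2.37 and −2.66 with serum and −2.32 and −2.83 without serum. The cordycepin arrays lay above the 5 others, by 0.97 over serum (SE 0.22, 95% interval 0.48 to 1.47, adjusted p = 0.0145), just short of 2-fold. Its probe differs from the other H4 probes in that it covers mainly the 5′ UTR, as the 30-base window around the start codon (capitals) shows.
Hist1h4h (chr13:23622937-23622996, plus strand, mm9): tcttcagcaagtacaccATGtctggtcgtg
Hist1h4k, coding end with stop codon (chr13:21842063-21842122, minus strand): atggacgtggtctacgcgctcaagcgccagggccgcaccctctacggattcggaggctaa
Without serum array 1 the Hist1h4h difference lost its adjusted p under 0.05, as it did with spike-in centring and with no filter on dim probes. Without cordycepin array 2, cordycepin array 3 or serum array 2 it passed the 2-fold mark as well. Over the 14 settings its change ranged from 0.67 to 1.09.

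Of the other 9 H4 probes in the body of the transcript, 8 ranged more widely among the cordycepin arrays than their group means differed. They include Hist1h4d (6.61, 5.88 and 6.36 with cordycepin, 5.83, 6.08 and 6.04 with serum, 5.89 and 6.29 without serum), the H4 probe with the highest signal, and the Hist1h4k probe printed above. Relative to their serum means, the median of the 9 was 0.63 on cordycepin array 1, −0.09 on array 2 and 0.43 on array 3, while array 2 without serum stood at 0.34 and array 1 without serum at −0.12. Cordycepin array 2 lay below the serum mean for the same 8 probes, whose differences between groups were 0.09 to 0.40. The exception was the body probe of Hist1h4i, with −1.46, −1.65 and −1.62 with cordycepin and −1.94, −2.03 and −1.79 with serum, which did not overlap. Its difference was 0.34, with an adjusted p of 0.0910, the lowest of the 9 (highest 0.837). Several of these probes list the same transcripts, so they are not separate measurements. The H4 class median of 0.30 fell to 0.15 without cordycepin array 1 and was 0.50 without cordycepin array 2. Hist1h4m, which holds the stem-loop, differed by 0.04. The files place the Hist1h4i body probe at chr13:21923974-21924033, close to the Hist1h4m probe and on the same strand. RefSeq, however, places the gene Hist1h4i elsewhere, between Hist1h2ah and Hist1h2ag, and Hist1h4m on the plus strand. It has another H4 gene near Hist1h4m, Hist1h4n, on the minus strand. Values of either probe may thus include RNA of Hist1h4n. The second Hist1h4i probe, past the end, differed by 0.30 (adjusted p = 0.457). It is not placed on the genome by the file, and a 15-base stretch of it recurs in 3 other array probes.

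**Figure D3:**
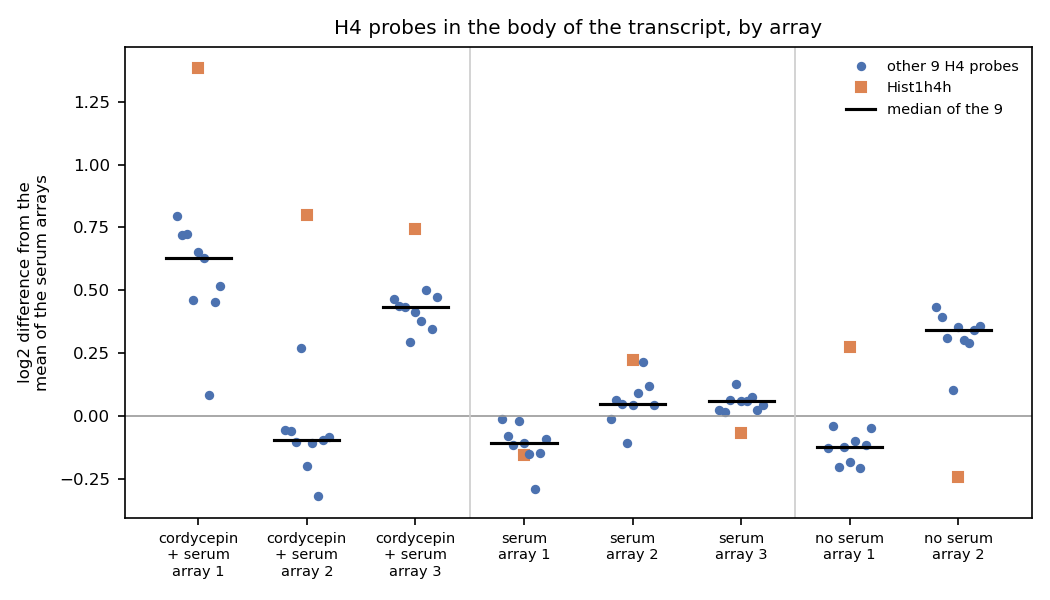
For the 10 tested H4 probes in the body of the transcript, the vertical axis gives the log2 difference of each array from the mean of the 3 serum arrays; circles are 9 probes, black bars their median and squares Hist1h4h. The circles sit high on cordycepin arrays 1 and 3 and on no-serum array 2, and mostly just below 0 on cordycepin array 2, while the squares stand highest on the 3 cordycepin arrays.

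Grouped by the part of the transcript they see, probes past the stem-loop held most of the values that passed. This grouping was chosen after the values were seen and is given as a description. Of 8 tested probes past the stem-loop, 3 passed an adjusted p of 0.05, all higher with cordycepin, where 11.7% of all probes passed as higher and 7.71% as lower. Of these 3, Hist2h2be passed in 13, Hist1h2be in 2 and Hist1h2bc in 0 of the 14 alternative settings. All 3 are among the 5 tested H2B probes past the stem-loop. The 1 such probe each of H2A, H3 and H4 did not pass, so position and class cannot be told apart. The median change of the 8 was 0.31. Of 30 probes in the body 1 passed (median 0.10), and of 5 probes holding the stem-loop 0 passed (median 0.03, all intervals between −0.63 and 0.65, with 0 of 5 at an unadjusted p under 0.05 in limma). The 16 tested probes that list more than 1 transcript had a median of 0.09 and the other 27 one of 0.10.

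The members fall into a few chromosomal groups by the probe positions in the files. On chromosome 13 they form 5 groups separated by gaps of more than 100 kb: 14 probes at chr13:21814057-21924985, 2 at chr13:22127035-22134451, 21 at chr13:23622937-23855947, 2 at chr13:24025811-24026527 and Hist2h2aa2 alone at chr13:51298057-51298116. RefSeq places the gene Hist2h2aa2 on chromosome 3, so this lone chromosome 13 position is only that of its probe in the files. It likewise places Hist1h4i between Hist1h2ah and Hist1h2ag of the second group, while the Hist1h4i body probe is counted in the first. A further 7 probes lie at chr3:96024171-96074115, and Hist4h4 stands alone at chr6:136752681-136752740. The median changes of these groups were 0.04, −0.04, 0.18, 0.25, 0.12, 0.07 and 0.30 in that order. The untested probe of Hist3h2bb-ps lies at chr11:58767908-58767967, and 2 probes, the second of Hist1h4i (0.30) and that of Hist2h3c2 (−0.03), are not placed by the files. Of the 4 probes that passed, Hist1h4h, Hist1h2be and Hist1h2bc lie in the third chromosome 13 group and Hist2h2be in the chromosome 3 cluster. The third group had 13 tested probes above 0 and 3 below, from Hist1h4h at 1 end (0.97) to Hist1h1a at the other (−0.16). In the chromosome 3 cluster, Hist2h2be (0.87) lay between Hist2h2ac (0.10) and Hist2h3b (−0.15).

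**Figure D4:**
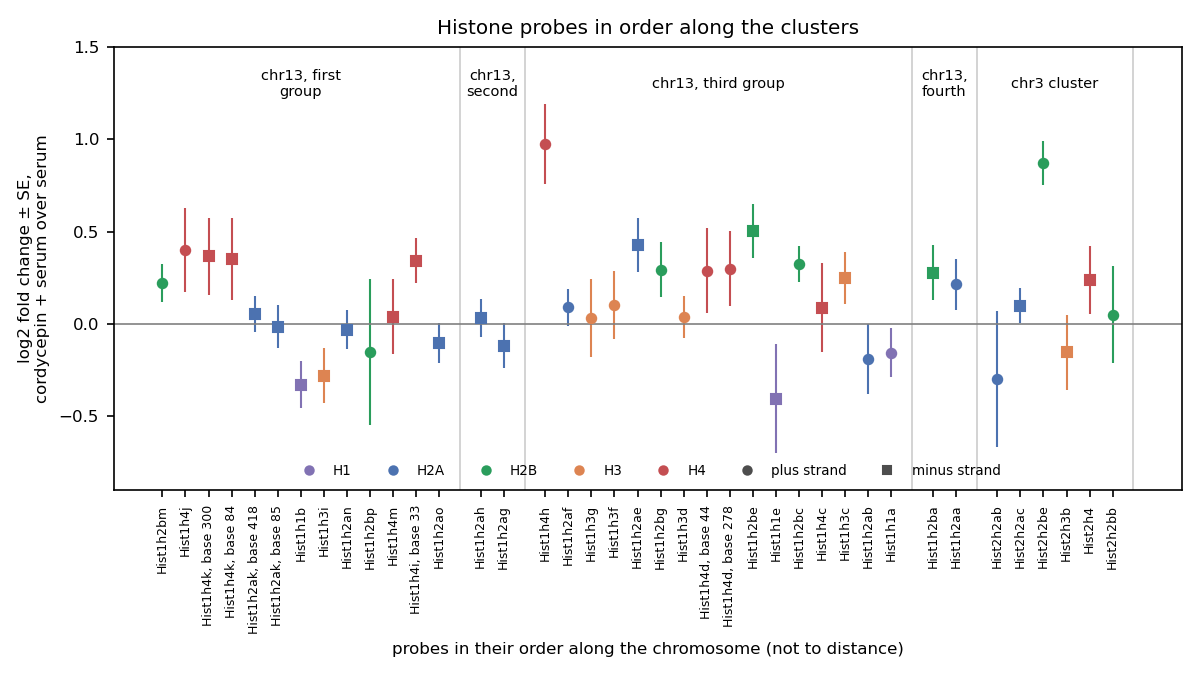
The log2 fold change of cordycepin plus serum over serum, with its SE, is plotted for tested histone probes in their order along chromosome 13 (the first 4 groups) and chromosome 3, with colour for the class and shape for the strand. Hist1h4h and Hist2h2be stand out from neighbours that lie near 0.

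Serum alone was compared with no serum to see whether 30 min of stimulation touched these genes. No histone probe passed: 0 of 43 were called by limma, where 0.878% of all probes were called higher and 0.898% lower, and 0 reached an adjusted p under 0.05 at any size (1.17% higher and 1.16% lower over all probes). At an unadjusted p under 0.05 there was 1, Hist1h3i, which was 0.40 higher with serum (adjusted p = 0.448). Differences ran from −0.43 to 0.40, and 41 of 43 intervals lay within −1 to 1. The class medians lay between −0.07 (H4) and 0.00 (H1). The comparison rests on 2 arrays without serum, whose H4 values differed as described above.

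Cordycepin plus serum was also set against no serum, a comparison that shares the cordycepin arrays with the first. No member probe was called, against 6.46% of all probes higher and 3.08% lower, and 7 had an unadjusted p under 0.05 in limma, as did 26.7% of all probes. Without regard to size 3 probes were higher (background 9.07%) and 1 lower (6.15%). Hist2h2be rose by 0.74 (SE 0.13, adjusted p = 0.00751), Hist1h4h by 0.96 (SE 0.24, adjusted p = 0.0318) and Hist1h2be by 0.61 (SE 0.16, adjusted p = 0.0417). Hist1h1b fell by 0.53 on the log2 scale (SE 0.14, adjusted p = 0.0424). Without array 2 of the cells without serum 0 of these passed, and without cordycepin array 1 only Hist2h2be did.

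**Figure D5:**
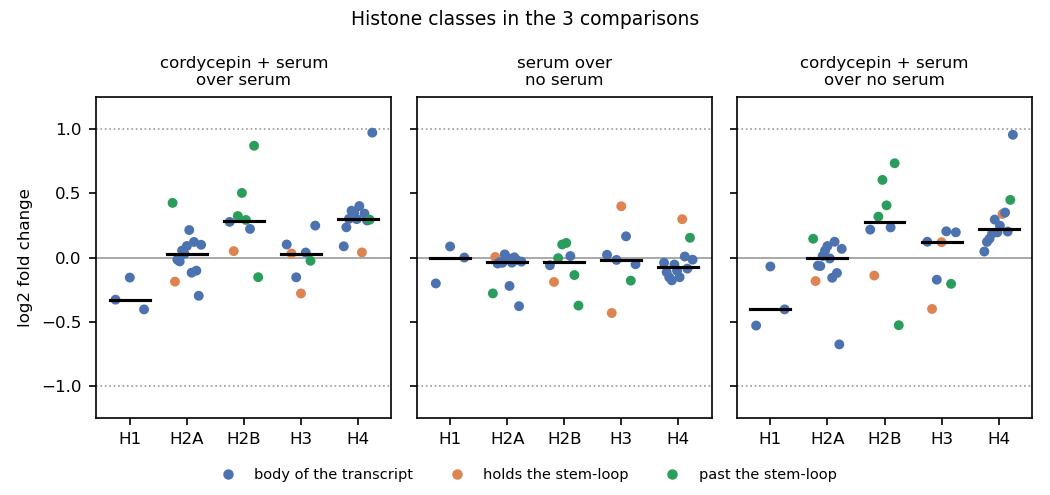
Log2 fold changes of the 43 tested histone probes are plotted by class for the 3 comparisons, with a bar at the class median, a colour for the part of the transcript and dotted lines at 2-fold. All points lie within 2-fold, and the H1 median lies lowest in both comparisons that involve cordycepin.

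The factors that make and destroy histone mRNA were measured as a list for comparison. For this and the lists that follow, the shares of all probes stay those given above: 7.56% called higher and 2.99% lower, and 11.7% and 7.71% at any size. Of 16 processing factors 0 were called, and 1 passed without regard to size: Zfp473, the zinc finger protein of the U7 snRNP complex, was 0.98 higher with cordycepin (adjusted p = 0.0128), with arrays at −2.29, −2.04 and −2.75 against −3.35, −3.46 and −3.20 with serum. Slbp measured 1.16, 1.62 and 1.33 with cordycepin and 1.62, 1.29 and 1.31 with serum, and these groups overlapped (difference −0.04, SE 0.16). Of 10 decay factors 0 were called. Exosc3, a subunit of the RNA exosome, was 0.65 lower, from 0.33, 0.17 and 0.10 with serum to −0.53, −0.40 and −0.43 with cordycepin (log2 change −0.65, adjusted p = 0.00591).

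Among the regulators of histone genes and the chaperones, 15 of 16 genes were tested, 1 was called higher and 1 lower. Hinfp, the transcription factor that binds H4 promoters, fell by 2.18 (SE 0.19, adjusted p = 0.000120): its brightest probe measured −2.59, −2.04 and −1.85 with cordycepin, 0.05, −0.01 and 0.01 with serum and 0.03 and −0.21 without serum. A second probe fell by 0.80 (adjusted p = 0.0166), and the third was not well above background on any cordycepin array. The H4 probes themselves had means 0.04 to 0.97 higher in the same arrays. Asf1a, a chaperone of H3 and H4, rose by 1.62 (SE 0.17, adjusted p = 0.000284), from −1.77, −2.17 and −2.14 with serum to −0.63, −0.12 and −0.47 with cordycepin. Pou2f1, which binds the octamer of H2B promoters, had 1 probe lower (−0.42, adjusted p = 0.0267) and 1 that differed by 0.06. Npat, a coactivator of histone transcription, did not clear background on any of the 8 arrays.

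Replication-independent histone genes, most of which have only ordinary polyadenylated mRNAs, were listed for comparison. Of 13 genes 12 were tested and 1 was called: H1foo, the linker histone of oocytes, rose by 1.85 (adjusted p = 0.000300), from −3.51, −3.40 and −3.22 with serum to −1.42, −1.55 and −1.63 with cordycepin. The median of the list was 0.19. H2afz, the H2A.Z gene, measured 6.70, 6.65 and 6.64 with cordycepin and 6.47, 6.46 and 6.48 with serum, a difference of 0.19 that did not pass (adjusted p = 0.232). H3f3b, a gene for H3.3, differed by −0.10 (limma adjusted p = 0.621), and its other probes by −0.32 (limma adjusted p = 0.227) and 0.01. Of 24 S-phase and replication genes 23 were tested and 0 were called. The median change of the list was 0.06.

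Histone promoters also carry shared sequence elements, which were counted in the RefSeq promoters (build GRCm38, windows of 300 bases that span each start) as a description. A CCAAT box (CCAAT, either strand) was present in 100% of the 6 H1, 18 H2A, 17 H2B and 10 H3 promoters but in 25.0% of 12 H4 promoters and 37.4% of all 32851. The octamer ATTTGCAT was found in 41.2% of H2B and 38.9% of H2A promoters, in 0 of the H1, H3 and H4 promoters, and in 1.74% of all. Many H2A and H2B windows overlap on opposite strands of the same DNA, so the same sites were counted in both classes. The H1 box (AAACACA) was present in 83.3% of H1 promoters against 7.18% of all, and TATAAA in 40.0 to 66.7% of each class against 13.6%. None of these motifs is contained in another.

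The identity of the cells was checked against marker genes. All 8 fibroblast markers were well above background on all 8 arrays. Of 4 epithelial markers none was so on all arrays: Cdh1 and Krt18 were on no array, Epcam on 1 and Krt8 on 7, and Krt8 differed by 0.31 between cordycepin and serum (adjusted p = 0.133). Of 3 endothelial markers, Pecam1 and Kdr were well above background on all 8 arrays, with differences of −0.38 (adjusted p = 0.0629) and 0.00 (adjusted p = 0.988), and Cdh5 on none. Among the 3 leukocyte markers Cd68, a lysosomal protein of macrophages, rose by 3.02 with cordycepin (adjusted p = 4.79e-05), Cd3e differed by 0.12, and Ptprc was well above background on 3 of 8 arrays. The summed leukocyte signal, in multiples of the 75th percentile, was 8.75 to 10.9 on cordycepin arrays, 2.03 to 2.39 with serum and 2.00 to 2.29 without. Its part in the histone values was not tested.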

How the data were processed

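For each array, the deposited file gives spot intensity on a linear scale, which the authors obtained from the scanned image with Agilent Feature Extraction 10.7.3.1, which subtracts background and flags outlier spots and spots not well above background. Probe positions refer to mm9. From these values, log2 of the processed signal minus the 75th percentile of each array was computed without control spots and outlier spots, and spots of a probe were averaged. Spots numbered 62976, of which 3671 were controls. Group means were fitted to all 8 arrays without covariates and compared in R 4.3.3 (limma 3.58.1). P-values are two-sided, adjusted by Benjamini and Hochberg over the 30859 probes tested, and measure the spread between these arrays. All arrays lay on 1 slide read in 1 scan, so that neither could be tested as a batch.

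Named probes are, per class, that with the highest mean, the largest rise and the largest drop, and all that passed a test. For listed genes the probe with the highest mean is given, with other probes where stated. Members and lists were chosen with earlier results of these data known. The split by part of the transcript rests on the stem-loop and on a start at base 480 or later (800 for H1). Gene symbols are those of the array. RefSeq symbols and promoters are of GRCm38, and no coordinates of that build are given. Alternatives were normexp background correction (offset 50), quantile normalisation, centring on spike-in probes, no filter on dim probes, no minimum fold change, the replicate number or the slide row as a block, and leaving out each array. The calculation was tested on simulated data.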

Additional observations from a re-analysis of the deposited data

How the results depend on the processing

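Across 672 recalculations of the fold changes of the named histone probes, 585 stayed on their side of the threshold with the same direction or within 1 SE of the value given, 58 kept their direction but lost an adjusted p under 0.05, 2 gained it, 27 of those not past it moved through 0 by more than their SE, and 0 reversed. Without a minimum fold change, 4 histone probes passed for cordycepin plus serum against serum and 4 against no serum. Only these had an adjusted p under 0.05 to lose, so the 58 losses all fell on them. Over 14 settings, Hist2h2be kept it in 13 (against serum) and 12 (against no serum). The counts were 11 and 8 for Hist1h4h and 2 and 3 for Hist1h2be. Hist1h2bc kept it in 0 against serum, and Hist1h1b in 5 against no serum. The replicate numbers of the labels did not pair the arrays (correlations of deviations between same-numbered arrays of −0.17 to 0.23). With the replicate block, 2 probes had an adjusted p under 0.05 for cordycepin plus serum against serum in place of 4, and 1, Hist1h4h, was called against no serum. The counts of probes at an adjusted p under 0.05 of any size for cordycepin plus serum against serum were 2 with normexp, 0 with spike-in centring and 1 without the filter, and against no serum 2 with quantile normalisation, 0 with spike-in centring and 2 without the filter. Leaving out each array gave 0 to 1 called probes in both comparisons, 1 to 3 at any size against serum and 0 to 3 against no serum. On the log2 scale, the spike-in median minus the 75th percentile was 1.28, 0.13 and 0.74 on the cordycepin arrays. It was 0.44, 1.12 and 0.46 with serum and −0.26 and 0.93 without serum. Centring on the spike-in probes adds this spread within groups to every probe. Spike-in centring moved the median of all probes to −0.35 for serum against no serum and to −0.31 with cordycepin plus serum over no serum. Under it the class medians for serum against no serum were −0.34 (H1), −0.38 (H2A), −0.37 (H2B), −0.36 (H3) and −0.41 (H4). With cordycepin plus serum over no serum they were −0.79 (H1), −0.39 (H2A), −0.10 (H2B), −0.26 (H3) and −0.16 (H4). Without the filter the H1 median was −0.16 against serum and −0.070 with cordycepin plus serum over no serum. For the class medians, leaving out each array was added after the data were seen, and it gave medians of −0.17 to 0.13 for H1 and −0.31 to 0.12 for H4 in serum against no serum, and of −0.017 to 0.47 for H4 with cordycepin plus serum over no serum, with the extremes for H4 where an array without serum was left out. The cause of these shifts was not tested. The precision is limited by the number of arrays, and the median interval of a histone probe reached 0.34 to either side for cordycepin plus serum against serum.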

Other observations

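A probe outside the name rule, chosen after its values were seen, is described in the file as a clone of Hist2h2bb and carries no gene symbol. It lies at chr3:96082754-96082813 (mm9), 8.6 kb beyond the stem-loop probe of Hist2h2bb, and starts at base 1340 of its transcript. It measured 0.67, 1.05 and 1.17 with cordycepin, −0.84, −1.13 and −0.30 with serum and 0.04 and −0.14 without serum. The cordycepin arrays lay above the 5 others, and the rise over serum of 1.72 (SE 0.23, 95% interval 1.20 to 2.24, limma adjusted p = 0.000995) was called. The stem-loop probe of Hist2h2bb differed by 0.05 in the same arrays. Another 2 probes described as histone cluster transcripts without a symbol differed by 0.37 (adjusted p = 0.0786) and 0.35 (adjusted p = 0.181), the latter holding a stem-loop.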
